A study of Trichoderma reesei with 12 samples.

Results

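The genes described here are 98 abundant transcripts of Trichoderma reesei that stood moderately higher in light than in darkness in both strains of the study. They were chosen from the measured levels: a mean of at least 300 CPM (the count of a gene per 1000000 counts of its library) in light in both strains, and a ratio of the light mean to the dark mean of at least 1.5 and below 4 in both strains. The deposited table has 10879 rows, of which 652 reached 300 CPM in light in both strains. Of these 652, 152 had a ratio of at least 1.5 in both strains, and 54 of them were left out because the ratio was 4 or more in at least 1 strain. Gene names are not paired with the identifiers of the table, and no function is assigned to any of the 98.

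The 12 libraries were made from mycelium grown for 96 h at 28 °C in minimal medium with cellulose as the only stated carbon source. All cultures lacked ku80, a gene of non-homologous end joining whose loss eases gene targeting, in the QM6a background. The sor4 strain also lacked sor4, a transporter gene of the SOR cluster, which makes the sorbicillinoid pigments, while the ku80 strain, labelled as the wild type, kept it. There were 4 libraries of sor4 in light, 2 of ku80 in light, 4 of sor4 in darkness and 2 of ku80 in darkness. Total counts ran from 7844524 to 12027855 per library. No label states whether replicates came from separate cultures, and p-values therefore rest on a spread that may be technical. The row of sor4 itself cannot be looked up by name, so the deletion was not checked here.

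Light is a strong signal for this fungus. In Trichoderma the photoreceptor proteins BLR1 and BLR2, homologs of the White Collar proteins of Neurospora, act together as a transcription factor complex in light, and the small photoreceptor ENV1 tunes the response. Light is known to affect conidiation, secondary metabolism and the production of cellulases in this species.

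The level in light was high but spread over a wide range. The mean over both strains in light ran from 305 to 6066 CPM with a median of 621 CPM. Of the 98 genes, 37 stood between 300 and 500 CPM, 37 between 500 and 1000 CPM, 13 between 1000 and 2000 CPM and 11 above that. The highest had rank 3 among all rows in light, and 24 of the 98 were among the 100 most abundant. Read depth did not limit single values, since the smallest count of any of them in any library was 805.

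The 98 genes together held a stable part of each library within a condition. In light they gave 8.81% to 9.05% of all counts in the 4 sor4 libraries and 9.06% and 9.33% in the ku80 libraries. In darkness they gave 4.55% to 4.78% in the sor4 libraries and 4.40% and 4.58% in the ku80 libraries. The group means were 8.93% ± 0.097 (SD, n = 4) for sor4 in light, 9.19% ± 0.19 (SD, n = 2) for ku80 in light, 4.63% ± 0.11 (SD, n = 4) for sor4 in darkness and 4.49% ± 0.13 (SD, n = 2) for ku80 in darkness. The higher share in light follows from how the genes were chosen. The shares are parts of a total, and in bulk mycelium fewer cells of a type and less RNA per cell cannot be told apart.

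**Figure D1:**
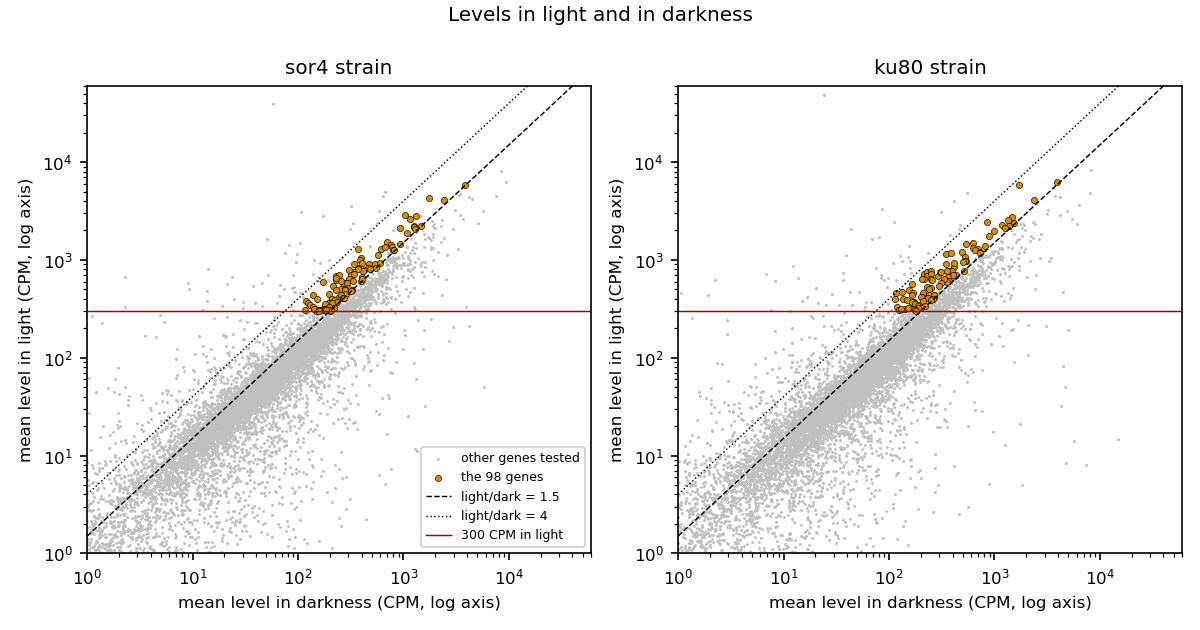
Mean level in light (vertical axis, CPM, log scale) against mean level in darkness (horizontal axis, CPM, log scale) for the sor4 strain (left) and the ku80 strain (right). Orange points are the 98 genes, grey points the other genes tested, the dashed and dotted lines mark light-to-dark ratios of 1.5 and 4, and the horizontal line marks 300 CPM; genes under 1 CPM lie outside the axes.

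Most of the 98 genes lay near the lower end of the allowed ratios. The light-to-dark ratio ran from 1.503 to 3.48 in sor4, with a median of 1.88, and from 1.504 to 3.95 in ku80, with a median of 2.03. By the geometric mean of both strains, 54 genes had a ratio between 1.5 and 2, 24 between 2 and 2.5, 14 between 2.5 and 3, and 6 between 3 and 4. In 72 genes the ratio was larger in ku80 and in 26 it was larger in sor4, by CPM of the column total. The share over all genes tested is not given here. Against TMM, this scaling raised light log2 fold changes by a median of 0.080 in ku80 and 0.042 in sor4 over all genes tested. With TMM some genes changed order, among them TrB0396C, at 1.71 in ku80 and 1.74 in sor4. The difference of the ratio between the strains was not tested. Across the 98 genes the Spearman rho between ratio and light CPM was 0.026, given as a description. The choice of the genes limited both values, so this rho cannot tell whether the ratio varies with the level.

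At the limits the choice turned on small differences. TrG0965W, just inside the lower limit, had a ratio of 1.503 in sor4 and 1.56 in ku80, while TrD0677W, just outside it, had 1.499 in sor4 and 1.71 in ku80. TrE0510W, just inside the upper limit, had a ratio of 2.93 in sor4 and 3.95 in ku80, and TrC0791W, just outside, had 3.30 in sor4 and 4.11 in ku80. TrF0713C passed the level limit with a light mean of 301.9 CPM in sor4, where TrE0593C missed it with 297.7 CPM.

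Nearly all of the genes passed the test between light and darkness as well, which was fixed by their choice and supports nothing. In sor4, 95 of the 98 were called higher in light by edgeR's quasi-likelihood test at an adjusted p under 0.05, where 26.6% of the 8939 genes tested were called higher. In ku80, 91 of the 98 were called higher, against 19.8% of all genes tested. All 98 passed the filter on low counts, 90 were called in both strains, and 2, TrF0575W and TrB0922W, in neither. In 96 of the 98 genes every sor4 light library lay above every sor4 dark library, and in 95 both ku80 light libraries lay above both ku80 dark libraries. Over all genes tested the corresponding shares were 28% in sor4 and 37.4% in ku80.

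TrF0575W and TrB0922W missed the test in both strains, and 6 genes missed it in 1 strain. In sor4 these were TrF0575W (adjusted p = 0.0683), TrD0323C (0.0943) and TrB0922W (0.185), all from edgeR. In ku80 they were these 7: TrE1056C (adjusted p = 0.0516, edgeR), TrC1010W (0.0549), TrC0633C (0.0641), TrB0922W (0.106), TrE0834W (0.281), TrB1083C (0.291) and TrF0575W (0.347).

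The limits were also applied to part of the libraries, although they had been set on means of all libraries. When the same limits were applied to replicates 1 and 2 of every group, 100 genes met them, of which 93 are among the 98. In replicates 3 and 4 of sor4, left out of that step, the light-to-dark ratio of these 100 genes ran from 1.14 to 3.97. Its median was 1.86, against 1.95 in replicates 1 and 2. It lay between 1.5 and 4 in 84 genes, against 16.3% of all genes tested, and under 1.5 in 16 genes. Both light libraries were above both dark libraries in 99 of the 100, against 41.4% of all genes tested. Nearer in level were 689 genes of at least 300 CPM in light in replicates 1 and 2. Their median ratio in replicates 3 and 4 was 1.14. Since the limits came from all libraries, this step is a description and no independent support.

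**Figure D2:**
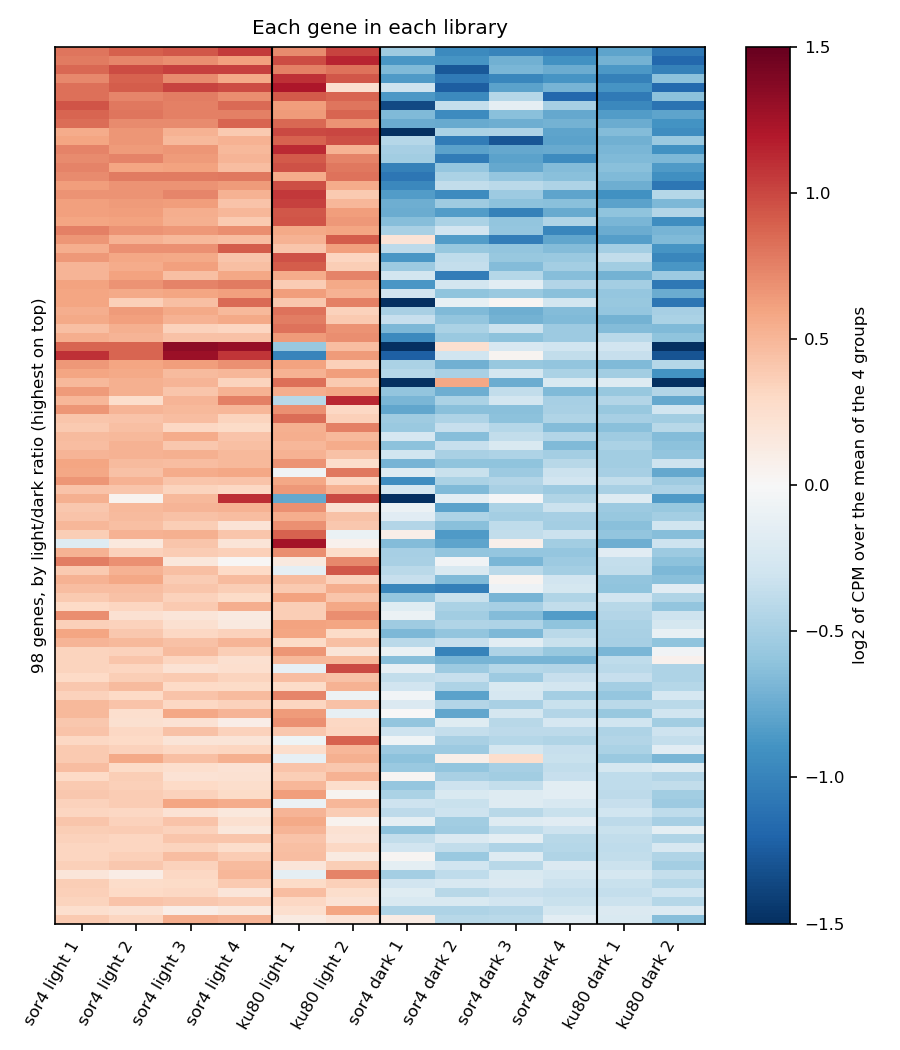
Each of the 98 genes (rows, highest light-to-dark ratio on top) in each of the 12 libraries (columns, grouped by strain and light), as log2 of its CPM over the geometric mean of its 4 group means; red is higher, blue is lower. The 6 light libraries are almost uniformly red and the 6 dark libraries blue; rows with mixed colours inside a group are genes that varied between replicates.

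By level, the leading gene was TrC0633C, with a listed length of 1953 bases. Its levels in light were 5487, 5198, 6003 and 6816 CPM in sor4, against 4388 and 8122 CPM in ku80. In darkness they were 3394, 3724, 4134 and 3991 CPM in sor4, against 4014 and 3760 CPM in ku80. Every light library stood above every dark library, though the lowest light value, in ku80 replicate 1, lay close to the highest dark one. The log2 fold change of light against darkness was 0.58 in sor4 (adjusted p = 0.0134, edgeR) and 0.61 in ku80 (0.0641). The ku80 value was 0.107 without ku80 light replicate 2 and 0.999 without ku80 light replicate 1, with adjusted p-values from 0.00259 to 0.702 over the alternatives of TrC0633C. DESeq2 (adjusted p = 0.0341) and scaling by library size alone (0.0321) also called it.

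TrC0197C, of 2682 bases, came next in level and had a larger ratio. In light it stood at 4362, 4689, 4239 and 3871 CPM in sor4, against 5856 and 5945 CPM in ku80. In darkness it stood at 1050, 2127, 2139.8 and 1712 CPM in sor4, against 1891 and 1545 CPM in ku80. All sor4 light libraries were below both ku80 light libraries, while in darkness the strains overlapped. Its log2 fold change of sor4 against ku80 was -0.45 in light (edgeR adjusted p = 0.643, SE 0.24) and 0.01 in darkness (0.993), so neither difference passed the test.

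TrC1011W, next in level, averaged 4103 ± 218 CPM in sor4 in light (SD, n = 4) and 4108 ± 1587 CPM in ku80 in light (SD, n = 2). In darkness it averaged 2426 ± 543 CPM in sor4 and 2370 ± 381 CPM in ku80. The large spread in ku80 light came from 5230 CPM in replicate 1 and 2986 CPM in replicate 2. Its log2 fold change of light against darkness in ku80 was 0.71 (edgeR adjusted p = 0.0424). That estimate ran from 0.27, without ku80 light replicate 1, to 1.08 over the alternatives. Not all of the alternatives kept the call, limma-voom among those that did not.

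TrC0441C and TrC0442W, the next in level, are long, with 6306 and 5583 bases. TrC0441C averaged 2788 ± 122 CPM in sor4 in light and 2745 ± 536 CPM in ku80 in light, and 1320 ± 110 CPM in sor4 in darkness and 1475 ± 154 CPM in ku80 in darkness (SD, n = 4 and n = 2). TrC0442W averaged 2602 ± 159 CPM in sor4 and 2553 ± 471 CPM in ku80 in light, and 1158 ± 92.7 CPM in sor4 and 1329 ± 170 CPM in ku80 in darkness. The log2 fold change of light against darkness was 1.04 in sor4 and 0.82 in ku80 for TrC0441C, and 1.12 and 0.86 for TrC0442W.

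Since CPM counts reads per gene whatever its length, levels between genes were compared per kilobase of listed length. On that scale the order changed, and short genes led. TrE0834W, of 486 bases, stood at 4378 CPM per kilobase in light (mean of both strains), TrB1083C, of 156 bases, at 4336, TrE1217W, of 225 bases, at 4024, and TrB0360C, of 342 bases, at 3564. TrC0633C, the leader in CPM, came next at 3106 CPM per kilobase. The lowest was TrF0713C, of 5400 bases, at 59.1 CPM per kilobase, and the median of the 98 was 329.

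Among these short genes TrB0360C had the largest light-to-dark ratio in both strains. It stood at 1201, 1297, 1350 and 1345 CPM in sor4 in light and at 1116 and 1164 CPM in ku80 in light. In darkness it stood at 416, 274, 410.1 and 393 CPM in sor4, against 363 and 326 CPM in ku80. The lowest light library was thus well above the highest dark one, with ratios of 3.48 in sor4 and 3.31 in ku80.

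By the geometric mean of the strain ratios, TrB0396C and TrE0510W had the largest ratios of all 98 and TrB1666C and TrG0965W the smallest. TrB0396C averaged 594 ± 41.8 CPM in sor4 in light (SD, n = 4), 573 ± 84.3 CPM in ku80 in light (SD, n = 2), 173 ± 29.0 CPM in sor4 in darkness and 165 ± 21.8 CPM in ku80 in darkness. TrE0510W averaged 359.9 ± 17.0 CPM in sor4 in light, 461 ± 38.1 CPM in ku80 in light, 123 ± 7.69 CPM in sor4 in darkness and 117 ± 26.5 CPM in ku80 in darkness. TrB1666C averaged 927 ± 66.1 CPM in sor4 in light, 765 ± 26.9 CPM in ku80 in light, 594 ± 109.7 CPM in sor4 in darkness and 509 ± 103 CPM in ku80 in darkness. In every one of these 4 genes no light library overlapped with a dark library of the same strain.

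Loss of sor4 was compared within light and within darkness, a contrast that the choice of the genes did not test. The choice did set a floor on the light mean of each strain and bounds on the light-to-dark ratio of each strain, so it limits how far the strain difference in light can depart from that in darkness. No gene of the 98 passed edgeR's test in light or in darkness. Over all genes tested, 0% were called in light and 0.0336% in darkness. At an unadjusted p under 0.05 there were 10 of the 98 in light (10.2%, against 8.17% of all genes tested) and 5 in darkness (5.10%, against 7.75%). DESeq2 called 0 of the 98 in light and 1, TrF0713C, in darkness, and limma-voom 0 in either. For these and the other alternative fits the share of all genes called is not given here. Their counts therefore cannot be set against such a share.

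The log2 fold change of sor4 against ku80 had a median of -0.03 in light, where it was 0 over all genes tested, and of 0.04 in darkness, where it was 0.01 over all genes tested. It lay within 1.5-fold in 95 of the 98 genes in light and in all 98 in darkness, against 7771 and 8050 of the 8939 genes tested and 398 and 400 of the 402 level genes (abundant genes within 1.5-fold between light and darkness in both strains). In light 58 genes were lower and 40 higher in sor4, and in darkness 37 were lower and 61 higher, by the sign of the estimate alone. Over all genes tested 4432 were lower and 4443 higher in light, and 4220 lower and 4715 higher in darkness, and among the 402 level genes 214 were lower in light and 244 in darkness. In light every sor4 library was below both ku80 libraries in 16 genes (16.3%, against 10.5% of all genes tested) and above both in 7 genes (7.14%, against 9.48%). In darkness the corresponding numbers were 4 genes below (4.08%, against 6.1%) and 7 genes above (7.14%, against 8.03%).

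**Figure D3:**
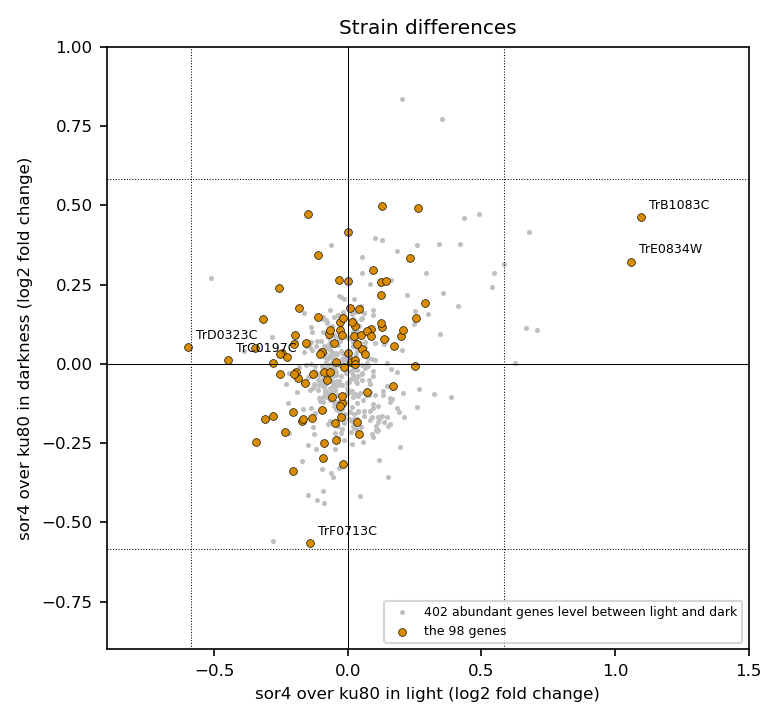
Log2 fold change of sor4 over ku80 in light (horizontal axis) and in darkness (vertical axis) from the edgeR fit. Orange points are the 98 genes, grey points the 402 abundant genes whose levels were within 1.5-fold between light and darkness in both strains, and dotted lines mark 1.5-fold; TrE0834W and TrB1083C lie far to the right and TrF0713C is the lowest of the 98.

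In light the largest positive differences between the strains were those of the short genes TrB1083C and TrE0834W. TrE0834W stood at 2886, 2473, 3276 and 2839.9 CPM in sor4 in light and at 680.2 and 2094 CPM in ku80 in light. Every sor4 light library was above both ku80 libraries, but the ku80 libraries were themselves 3.08-fold apart. The log2 fold change was 1.06 (edgeR adjusted p = 0.573, SE 0.45). It was 0.45 without ku80 light replicate 1 and 2.08 without ku80 light replicate 2, with adjusted p-values from 0.204 to 0.873 over the alternatives. In darkness TrE0834W stood at 574, 1091, 1389 and 1041 CPM in sor4, against 1061 and 549.96 CPM in ku80, with overlap.

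TrB1083C had 777, 776, 1078 and 1046 CPM in sor4 in light and 286 and 582 CPM in ku80 in light, again without overlap. Its log2 fold change was 1.10 (edgeR adjusted p = 0.614, SE 0.50). It was 0.66 without ku80 light replicate 1 and 1.69 without ku80 light replicate 2, with adjusted p-values from 0.29 to 0.878 over the alternatives. In darkness it had 141, 502, 359 and 345 CPM in sor4, against 348 and 133 CPM in ku80.

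The largest negative differences in light were those of TrD0323C and TrC0197C. TrD0323C had 381, 487.5, 584 and 497 CPM in sor4, against 1037 and 455 CPM in ku80 in light. The ku80 replicate 1 alone was above all sor4 libraries, and the log2 fold change was -0.60 (edgeR adjusted p = 0.635, SE 0.31). Without that library it was 0.095, so the direction rested on it.

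In darkness TrF0713C had the largest difference between the strains. Its levels were 155, 148, 148 and 148 CPM in sor4, against 185 and 251 CPM in ku80 in darkness. The sor4 libraries were almost level with each other and all below both ku80 libraries, and the ku80 libraries lay further apart from each other than the sor4 libraries did. The log2 fold change was -0.57 (edgeR adjusted p = 0.154, SE 0.096). The adjusted p was 0.000316 in DESeq2 and 0.00395 without ku80 dark replicate 1, and it ranged from 0.000316 to 0.766 over all alternatives. In light TrF0713C had 303, 320.0, 299.7 and 284 CPM in sor4, against 335 and 337 CPM in ku80, a log2 fold change of -0.14 (adjusted p = 0.738, edgeR).

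The other differences in darkness that the rule for naming genes picked were smaller. TrC0730C, of 6666 bases, averaged 395 ± 32.9 CPM in sor4 and 491 ± 38.7 CPM in ku80 in darkness, a log2 fold change of -0.34 (edgeR adjusted p = 0.397, SE 0.10). TrB0979C averaged 305 ± 96.4 CPM in sor4 and 213 ± 14.4 CPM in ku80 in darkness (log2 fold change 0.50, adjusted p = 0.699), and TrA0460W 272 ± 72.9 and 191 ± 11.3 CPM in sor4 and ku80 (0.49, 0.673). In TrB0979C and TrA0460W the strains overlapped, since sor4 dark replicate 1 was as low as a ku80 library or lower.

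One gene, TrE0820W, named after its values were seen, differed between the strains in opposite directions without overlap. It had 664.5, 670.3, 637 and 577 CPM in sor4, against 848 and 689.9 CPM in ku80 in light, and 283, 316, 291 and 321 CPM in sor4, against 273 and 230.1 CPM in ku80 in darkness. The log2 fold change of sor4 against ku80 was -0.26 in light (edgeR adjusted p = 0.584) and 0.24 in darkness (0.673), and the difference of the 2 was not tested. Such a pattern was seen in 1 of the 98 genes and in 1.04% of all genes tested.

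Short and long genes differed in the sign of the strain estimate. Of the 8 genes of at most 600 bases, 7 had a positive estimate of sor4 against ku80 in light (median log2 fold change 0.19) and 8 in darkness (0.17). Of the 8 genes of 5000 bases or more, 3 were positive in light (median -0.05) and 2 in darkness (-0.20). Across the 98 genes the Spearman rho between length and the strain estimate was -0.25 in light and -0.32 in darkness. These are descriptions, since all genes share the same 12 libraries. Among the 402 abundant genes level between light and darkness, 52 of 55 genes of at most 600 bases were positive in light (median 0.10). In darkness 9 of these 55 were positive (median -0.14). Of the 51 level genes of 5000 bases or more, 8 were positive in light (median -0.07) and 20 in darkness (-0.01). Across the level genes rho in light was -0.48, so the trend in light was not particular to the 98. Of 12 such short genes among 82 abundant genes lower in light, 10 were positive in light and 8 in darkness. In the 8 short genes among the 98, ku80 light replicate 2 was a median of 1.64 times replicate 1. That ratio was 0.86 in the 55 short level genes and 0.99 in the 12 short genes lower in light. The strain estimates in light rest on these ku80 libraries. Neither the part of length nor that of the spread between replicates in the strain estimates was tested.

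Replicates of the same group varied most in a small number of the genes. The SD of log2 CPM within groups had a median of 0.16 over the 98 genes, against 0.096 over the 402 level genes and 0.198 over all genes tested. It was under 0.1 in 13 genes, between 0.1 and 0.3 in 68 and 0.3 or more in 17. In 3 genes the highest sor4 light library was over 1.5 times the lowest, but in 30 genes this was so among the sor4 dark libraries. The shares over other genes are not given here, so this cannot be read as a property of the 98. The ku80 light libraries were over 1.5-fold apart in 19.4% of the 98 genes, against 23.8% of the genes tested that had counts in both and 4.48% of the 402 level genes.

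The steadiest genes were TrG0593C and TrC0491W, both with a within-group SD of 0.053 on the log2 scale. TrG0593C stood at 435, 463, 456 and 451 CPM in sor4, against 429 and 400.1 CPM in ku80 in light, and at 295, 294, 283 and 273 CPM in sor4, against 275 and 257 CPM in ku80 in darkness. TrC0491W, of 5277 bases, averaged 2236 ± 86.5 CPM in sor4 and 2217 ± 83.4 CPM in ku80 in light, and 1473 ± 46.4 CPM in sor4 and 1361 ± 59.8 CPM in ku80 in darkness (SD, n = 4 and n = 2). In both genes the light and dark libraries of a strain lay well apart.

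The most variable genes were TrF0575W, with a within-group SD of 0.75, and TrB0922W, with 0.74. TrF0575W had 690.3, 495, 669.6 and 1028 CPM in sor4, against 279 and 943 CPM in ku80 in light, and 129, 426, 470.2 and 347 CPM in sor4, against 417 and 264 CPM in ku80 in darkness. The low libraries were ku80 light replicate 1, sor4 dark replicate 1 and ku80 dark replicate 2. Without ku80 light replicate 2 the log2 fold change of light in ku80 turned to -0.36 for TrF0575W and to -0.32 for TrE0834W. TrB0922W had 412, 427, 419 and 373 CPM in sor4, against 523 and 388 CPM in ku80 in light, and 88.5, 442, 176 and 253 CPM in sor4, against 258 and 81.3 CPM in ku80 in darkness. Its light values were close together, and sor4 dark replicate 1 and ku80 dark replicate 2 were again the lowest.

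TrE0834W and TrB1083C were low in the same libraries as TrF0575W. Their levels in sor4 dark replicate 1 were 0.49 and 0.36 of the mean of sor4 dark replicates 2 to 4, against 0.31 for TrF0575W, and those in ku80 dark replicate 2 were 0.52 and 0.38 of replicate 1, against 0.63. In ku80 light, replicate 2 was 3.08-fold, 2.04-fold and 3.38-fold above replicate 1 in TrE0834W, TrB1083C and TrF0575W. Of the 11 genes that were over 1.5-fold higher in ku80 light replicate 2 than in replicate 1, 4 were over 1.5-fold lower in sor4 dark replicate 1 than in the other sor4 dark libraries and 0 were that much higher, where over all 98 genes 8 were that much lower and 4 that much higher. Of the 8 genes over 1.5-fold lower in ku80 light replicate 2, 2 were over 1.5-fold higher in sor4 dark replicate 1 and 0 were that much lower.

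**Figure D4:**
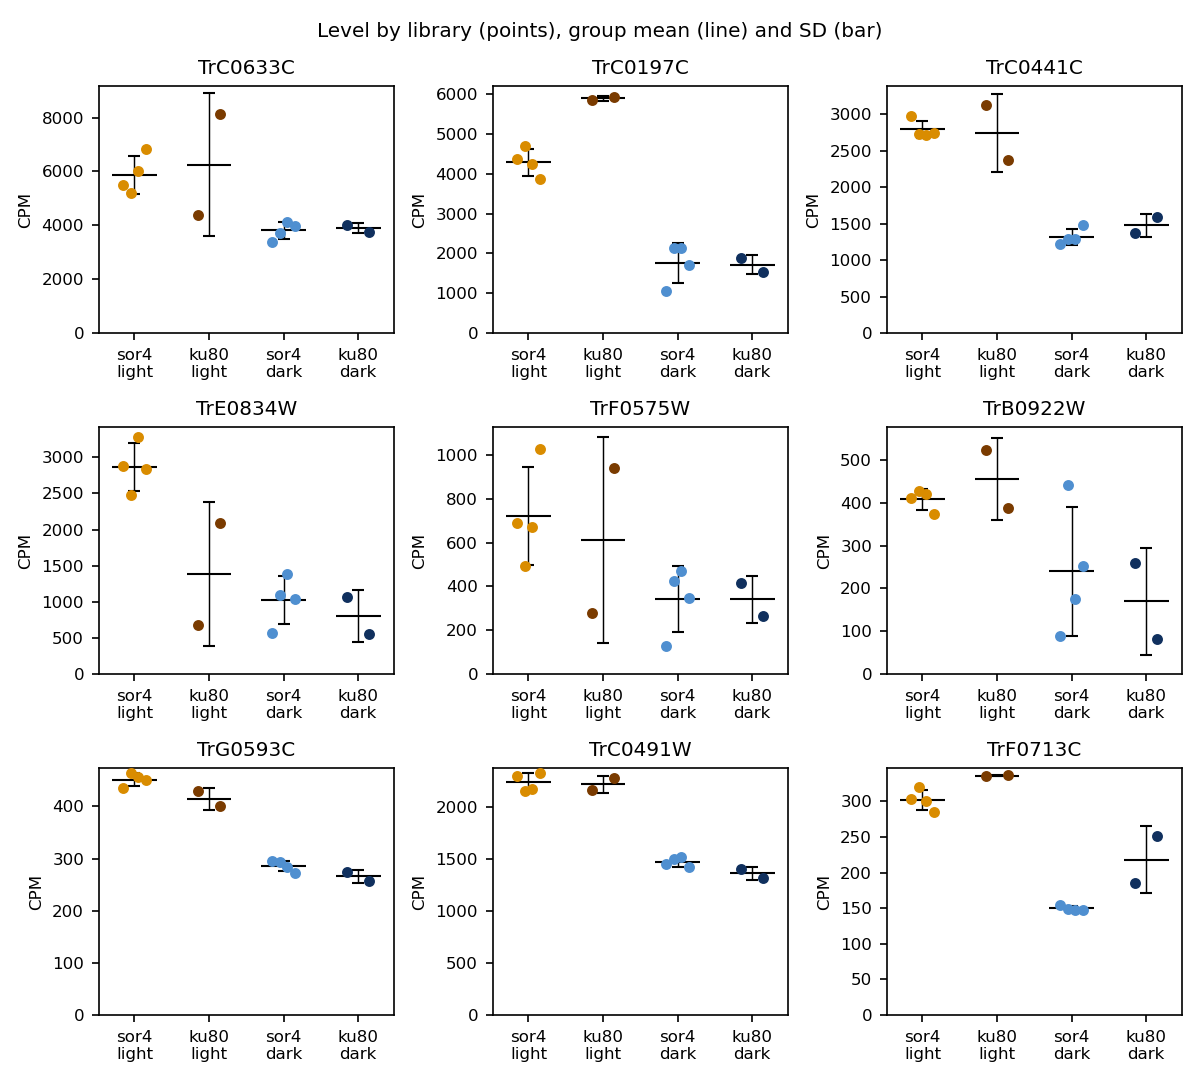
Level of 9 of the genes in CPM (vertical axis, from 0) in each library (points), with the group mean (line) and SD (bar; n = 4 for sor4 and n = 2 for ku80). TrG0593C and TrC0491W are tight within groups, TrE0834W, TrF0575W and TrB0922W spread widely, and TrF0713C shows 4 level sor4 dark libraries below both ku80 dark libraries.

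The 98 genes were longer than the genes tested as a whole. The median listed length was 1852.5 bases, with quartiles at 1213.5 and 3010.5 bases, against 1251 bases over all genes tested. It was 2055 bases in the 402 abundant genes that were level between light and darkness, and 1474.5 bases in 82 genes of at least 300 CPM in darkness in both strains that were lower in light by the same factors. Of the 98 genes, 8 (8.16%) had 5000 bases or more, against 1.49% of all genes tested, 12.7% of the 402 and 0 of the 82. A limit on CPM favours long genes, so the comparison with the 402 and the 82 is the closer one. The longest of the 98 was TrF1161W with 6870 bases, which stood at 2225 ± 173 CPM in sor4 and 2396 ± 20.9 CPM in ku80 in light and at 1269 ± 90.2 CPM in sor4 and 1535 ± 57.3 CPM in ku80 in darkness. In 97 of the 98 the length was a multiple of 3.

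By the letter in the identifier, 25 of the 98 were in series B, 21 in C, 13 each in A and E, 9 each in F and G and 8 in D. As a share of the genes tested in each series this was 1.56% in C and 1.49% in B, and between 0.685% (D) and 1.19% (E) in the others. The table gives no coordinates. Identifiers ended in W in 39 of the 98 (39.8%) and in 49.4% of all genes tested.

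Of the 98 genes, 8 followed each other directly in the table, as 4 pairs, and no run was longer than 2. The pairs were TrB1571C with TrB1572C, TrC0441C with TrC0442W, TrC1010W with TrC1011W, and TrE1216W with TrE1217W. In the last 3 pairs the ratio of the levels was nearly fixed from library to library. The level of TrC0442W was 0.859 to 0.956 times that of TrC0441C in all 12 libraries, a range of 1.11-fold, while the level of TrC0441C itself ranged 2.57-fold. TrC1011W was 7.94 to 9.501 times TrC1010W, a range of 1.196-fold, and TrE1217W was 0.541 to 0.627 times TrE1216W, a range of 1.16-fold. Over all 4753 pairs that can be formed from the 98 genes, the median range of the ratio was 2.17-fold, 10 pairs (0.210%) stayed under 1.2-fold, and the smallest value, 1.11-fold, was that of TrC0441C and TrC0442W.

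TrE1216W and TrE1217W shared also their deviations. TrE1216W had 1513, 1498, 1396 and 1426 CPM in sor4, against 1102 and 2384 CPM in ku80 in light, and 1099.7, 822, 894 and 888 CPM in sor4, against 905 and 868.5 CPM in ku80 in darkness. TrE1217W had 869, 859, 800.4 and 798 CPM in sor4, against 669.5 and 1289 CPM in ku80 in light, and 669.6, 497, 519 and 511 CPM in sor4, against 516 and 545 CPM in ku80 in darkness. In both, ku80 light replicate 2 was the highest library, ku80 light replicate 1 the lowest light library, and sor4 dark replicate 1 the highest dark library. Without ku80 light replicate 1 the log2 fold change of sor4 against ku80 in light was -0.72 for TrE1216W and -0.64 for TrE1217W (edgeR). With all libraries the log2 fold changes of sor4 against ku80 in light were -0.25 for TrE1216W and -0.23 for TrE1217W (adjusted p = 0.808 and 0.807, edgeR). Over the 20 alternatives these estimates ran from -0.72 to 0.40 for TrE1216W and from -0.64 to 0.31 for TrE1217W. The direction thus depended on which ku80 light library was used.

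TrC1010W, of 276 bases, had 495, 423, 532 and 503 CPM in sor4, against 551 and 326 CPM in ku80 in light, and 356, 207, 295 and 262 CPM in sor4, against 240.1 and 288 CPM in ku80 in darkness. In TrC1010W and TrC1011W alike, ku80 light replicate 1 was the highest library and sor4 dark replicate 2 the lowest. The sources used here give neither coordinates nor the strand setting of the counting, so whether neighbouring genes share reads cannot be told.

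The ratio was less steady in the remaining pair. TrB1572C was 2.73 to 4.41 times TrB1571C, a range of 1.62-fold. TrB1571C averaged 372 ± 22.8 CPM in sor4 and 383 ± 44.9 CPM in ku80 in light and 232 ± 16.1 CPM in sor4 and 208 ± 8.75 CPM in ku80 in darkness. TrB1572C averaged 1509 ± 20.9 CPM in sor4 and 1493 ± 78.8 CPM in ku80 in light and 701 ± 80.6 CPM in sor4 and 632 ± 50.1 CPM in ku80 in darkness. Its light-to-dark ratio was larger, 2.15 in sor4 and 2.36 in ku80, against 1.604 in sor4 and 1.84 in ku80 for TrB1571C.

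**Figure D5:**
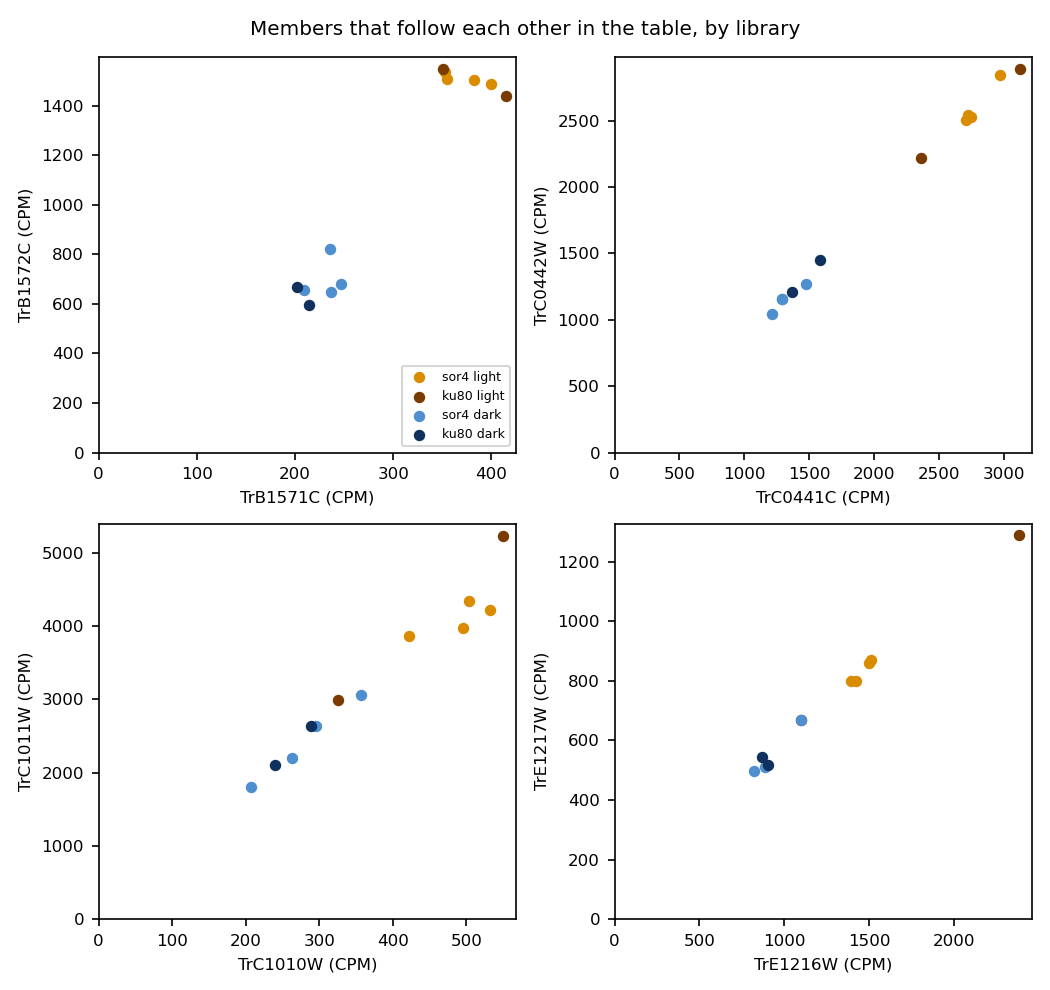
Level of the second gene (vertical axis, CPM) against the first (horizontal axis, CPM) for the 4 pairs of the 98 genes that follow each other in the table, 1 point per library, coloured by group. In 3 pairs the 12 libraries lie close to a line through the origin, while TrB1571C and TrB1572C form a light and a dark cloud with no line inside either.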

How the data were processed

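RNA was measured in 12 libraries. Per the labels' protocols, a kit for plant RNA was used, followed by ribosomal RNA depletion and a strand-specific library kit. The deposited table holds whole-number read counts per gene, 1 column per library, with a gene length. The submitters' processing notes name HISAT2 2.2.1, and featureCounts appears in the table's name. Not given in the sources used here: build, annotation and strand setting. Groups follow the titles and treatment labels, although the protocol field mentions darkness even for the light libraries. With 9116 RefSeq genes to compare, the 10879 identifiers gave 0 matches, so names and sequences are not printed.

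Levels are CPM of the column total. Tests used edgeR 4.0.16 (R 4.3.3), TMM normalization, the default filter by group (8939 genes), 1 fit of 4 group means and Benjamini-Hochberg adjustment over all genes tested, with a threshold of 0.05. Scripts were tested on simulated data. The genes and the rule for those named (the extremes in level, ratio, strain difference, spread and length, and direct neighbours) were chosen with earlier results of these data known. Length classes and the counts of libraries 1.5-fold apart were chosen after the values were seen. Alternatives covered the tool (limma-voom with limma 3.58.1, and DESeq2 1.42.0), the scaling (RLE factors or library size), the filter (none or stricter), the libraries fitted (the compared groups, or all but 1), a replicate block, and other forms of the rule.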

Additional observations from a re-analysis of the deposited data

Results flagged for a closer look

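Among 56 sets of 4 sor4 libraries, 7 held a library far from the other 3. By chance about 1 set in 20 would, if sets were independent and taken at random. Most sets were of genes named for extreme values, and TrC0441C and TrC0442W moved together. The 7 can therefore not be read as an excess. In sor4 light replicate 1, TrC0441C stood at 2970 CPM (2712 to 2746 in the others) and TrC0442W at 2840 CPM (2502 to 2538). In sor4 dark replicate 1, TrE1217W stood at 669.6 CPM (497 to 519), TrB0396C at 216 CPM (155 to 161) and TrF0713C at 155 CPM (148 in each of the others). In sor4 dark replicate 2, TrB0360C stood at 274 CPM (393 to 416). In sor4 dark replicate 4, TrG0965W stood at 239.8 CPM (208 to 211).

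TrE0820W was marked because every sor4 library was below both ku80 libraries in light and above both in darkness. The difference of its log2 fold changes was -0.498, and this difference was not tested.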

How the results depend on the processing

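Of the 98 genes, 95 were called higher in light in sor4 and 91 in ku80. These counts stayed between 93 and 97 in sor4 and between 73 and 94 in ku80 in every alternative run, with 73 in a fit of only the ku80 libraries. With each library left out they were 93 to 97 in sor4 and 77 to 94 in ku80. The number of genes called between sor4 and ku80 was 0 in light and 0 in darkness; it was 0 to 2 in light and 0 to 1 in darkness with a library left out, and 1 in darkness in DESeq2. The number of genes meeting the rule was 149 with a limit of 200 CPM, 57 with 500 CPM, 79 with TMM-scaled CPM, and 83 to 101 with a library left out. TMM scaling lost 20 of the 98. Shares of counts with TMM-scaled totals were 8.793% for sor4 in light, 8.965% for ku80 in light and 4.627% for ku80 in darkness. With a library left out, shares were 8.892% to 8.972% for sor4 in light, 9.056% to 9.328% for ku80 in light, 4.581% to 4.658% for sor4 in darkness and 4.395% to 4.577% for ku80 in darkness.

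Without ku80 light replicate 2 the log2 fold change of light in ku80 turned to -0.32 for TrE0834W and -0.36 for TrF0575W, against 1.31 and 1.40 without replicate 1. Without ku80 light replicate 1 that of TrD0323C between the strains in light turned to 0.095, against -1.09 without replicate 2. The causes were not tested. With the replicate number as a block, 95 genes were called in sor4, 89 in ku80 and 0 between the strains in light or darkness. The deviations of same-numbered sor4 light and dark libraries correlated at 0.0038 to 0.062, and those of different numbers at -0.0825 to 0.0467. Light replicates 1, 3 and 4 of sor4 correlated best with their own number, but replicate 2 with dark replicate 1. The values were small, and the numbers were not taken to pair libraries. Deviations of same-numbered ku80 libraries correlated at -0.092. Where a ku80 library was left out, the other was assumed to vary like the remaining groups.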

Other observations

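Genes next to the 98 in the table, 151 that were tested and are not among them, had a median log2 fold change of light against darkness of 0.22 in sor4 and 0.19 in ku80, against -0.01 and -0.02 over all genes tested. Of these neighbours, 34.4% were called higher in sor4 and 29.1% in ku80 (edgeR), where 26.6% and 19.8% of all genes tested were. Neighbours of the 402 level genes were called higher in 29.7% in sor4 and 23.1% in ku80, and those of the 82 genes lower in light in 21.7% and 15.5%. Called lower were 19.2% of the neighbours of the 98 in sor4 and 12.6% in ku80, and 18.1% and 14.2% of those of the level genes. Among neighbours of the 82 genes these shares were 40.3% and 31.8%. Over all 8939 genes tested, 2570 were called lower in sor4 and 2038 in ku80. No test was made of these differences.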
